A study of Mus musculus with 5 samples.

Results

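Fibrillar collagens and the collagens that attach to them are described here in mouse pancreas after caerulein. The 6 genes were taken by symbol from the 1457 genes analysed: the fibrillar chains Col3a1, Col5a2 and Col5a3 and the fibril-associated chains Col12a1, Col14a1 and Col16a1. Whole pancreas was taken from female C57BL/6 mice of 8 weeks, and polyadenylated RNA was sequenced. One library came from wild-type mice given saline, 2 (replicates 1 and 2) from wild-type mice given caerulein, and 2 (replicates 1 and 3) from miR-21-/- mice given caerulein. Caerulein, an analogue of cholecystokinin that brings on acute pancreatitis, was injected intraperitoneally at 50 µg/kg, given as 8-hourly in the labels, and tissue was collected 24 h after the first dose. No miR-21-/- saline library was analysed here. The labels give neither how the miR-21 allele was made nor whether each library is 1 mouse, so the p-values measure no spread between mice. The model used takes variance largely from a trend shared across genes. The p-values and SEs therefore do not measure each gene's own spread between its libraries either.

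Fibrillar collagens fold as triple helices whose long uninterrupted rods align side by side into the cross-striated fibrils of connective tissue. Type III collagen, made of Col3a1 chains, forms fine pliable fibrils together with type I, and type V chains sit inside the fibril and set how it starts and how thick it grows. Fibril-associated collagens have interrupted helices; types XII and XIV lie on the fibril surface and type XVI is found on fine fibrils and other matrix suprastructures. In the pancreas stellate cells and fibroblasts are the main known source of fibrillar collagen, and acinar cells, the bulk of the tissue, make little.

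Each value below is a deposited level per gene, of a unit that is not stated, so levels are compared between libraries within a gene and not between genes. The read depth is unknown. The values of all listed genes summed to 2818 in saline and to between 23255 and 38628 in the caerulein libraries, and 540 genes stood at the lowest value, 0.01, in saline against 31 to 89 in the caerulein libraries. The table lists its genes in falling order of wild-type caerulein over saline, and the smallest change of any gene, taken as its most distant caerulein library, was 2.53-fold from saline. By that measure 1440 of the 1457 genes were at least 4-fold from saline. A gene's place in the table and its difference from saline are therefore not independent, and hardly any unchanged gene was there to test. Among the caerulein libraries, wild-type replicate 1 was most like miR-21-/- replicate 3 (Spearman's rho 0.73 across the 1429 tested genes, which are not independent) and wild-type replicate 2 most like miR-21-/- replicate 1 (0.74), while the wild-type libraries gave 0.35 and the miR-21-/- libraries 0.45. The labels name no batch.

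The microRNA that separates the genotypes and the site it could pair with are shown first. The guide strand of miR-21, mmu-miR-21a-5p, comes from chr11:86584120-86584141 on the minus strand of GRCm38.p6 (RefSeq), and its seed, bases 2 to 8, is in capitals. Col12a1 was the 1 member of the 6 whose longest GENCODE 3′ UTR held the complement of that seed (1 match in 2178 bases), and the match is in capitals within its neighbouring bases. The 3′ UTR of Col12a1 was the longest of the 6, and the median over tested genes was 1285 bases. A match is a description of letters and not a shown target.
mmu-miR-21a-5p: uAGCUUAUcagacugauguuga
Col12a1 site: tgaaggaggcgcctaATAAGCTactaacca

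A seed match for miR-21 stood in 7.1% of the 20979 protein-coding genes with a 3′ UTR and in 8.1% of the 1339 tested genes matched to one. The seed of the miR-29 family, textbook regulators of collagen messages, gave another pattern. Its complement stood in Col3a1, Col5a2 and Col16a1 (1 match each) and in Col5a3 (3 matches), and in neither Col12a1 nor Col14a1, against 15.2% of tested genes. The member of the family shown is mmu-miR-29a-3p (chr6:31062673-31062694, minus strand, GRCm38.p6), with its seed and the matching bases of Col3a1 and Col5a2 in capitals.
mmu-miR-29a-3p: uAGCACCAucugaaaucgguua
Col3a1 site: ttcaaaatgtctcaaTGGTGCTataataaa
Col5a2 site: cttttcttttaatgaTGGTGCTaaaattat

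Col3a1, Col5a2 and the other members were scarcely detected in saline and were higher in every caerulein library, which the plot of values by library shows. In saline Col3a1 was 0.38, and the other 5 members stood at 0.01, the lowest value in the table, so no fold is given for those. In each of the 6 genes saline lay below all 4 caerulein libraries, as it did for 87.6% of the 1429 tested genes, so the members' share says nothing particular about collagens.

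**Figure D1:**
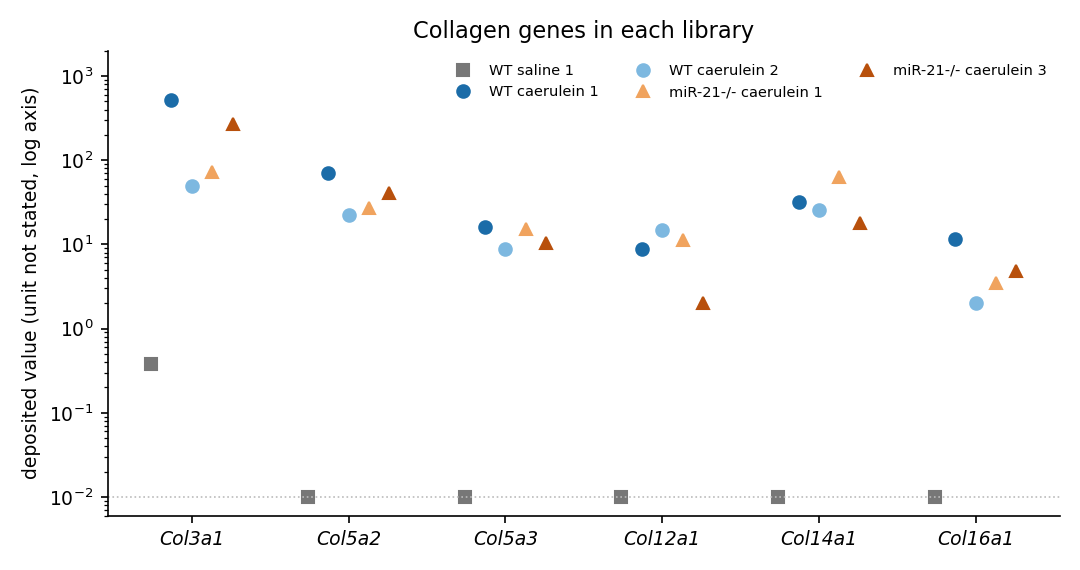
Deposited value (unit not stated, log axis) of each collagen gene in each of the 5 libraries; squares are saline, circles wild-type caerulein and triangles miR-21-/- caerulein, and the dotted line marks the lowest value, 0.01. All 4 caerulein points lie above saline for each gene, and those of the genotypes overlap.

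Among the fibrillar members, Col3a1, the chain of type III collagen, was 525.1 and 50.15 in wild-type caerulein replicates 1 and 2 (287.6 ± 335.8, mean ± SD, n = 2). In miR-21-/- caerulein replicates 1 and 3 it was 73.25 and 271.09 (172.2 ± 139.9, n = 2). Wild-type replicate 1 and miR-21-/- replicate 3 were high and the other caerulein libraries low, so the replicates of a genotype differed more than the genotypes did.

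Col5a2, the α2 chain of type V collagen, was 70.38 and 22.17 in wild-type caerulein and 26.87 and 41.07 in miR-21-/- caerulein. It followed the same order of libraries as Col3a1 over a smaller range, 3.17-fold from lowest to highest against 10.5-fold. The ratio of Col3a1 to Col5a2 was 7.46 and 6.60 in wild-type replicate 1 and miR-21-/- replicate 3, and 2.26 and 2.73 in wild-type replicate 2 and miR-21-/- replicate 1. The highest and the lowest of these ratios both belonged to wild-type libraries. In the RefSeq annotation of GRCm38.p6 the genes are neighbours on chromosome 1, with no protein-coding gene between them.

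Col5a3, the α3 chain of type V collagen, was 16.08 and 8.88 in wild-type caerulein and 15.39 and 10.34 in miR-21-/- caerulein. Its caerulein values spanned 1.81-fold, the narrowest range of the 6 members and below the median range of all tested genes, 3.32-fold.

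Among the fibril-associated members, Col12a1, the type XII chain of fibril surfaces, was 8.78 and 14.82 in wild-type caerulein and 11.27 and 2.0 in miR-21-/- caerulein. Its order of libraries was another than that of Col3a1: wild-type replicate 2 was highest and miR-21-/- replicate 3 lowest. The ratio of Col3a1 to Col12a1 accordingly went from 3.38 in wild-type replicate 2 to 135.5 in miR-21-/- replicate 3.

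Col14a1, the type XIV chain, also found on fibril surfaces, was 32.23 and 25.33 in wild-type caerulein and 62.92 and 18.03 in miR-21-/- caerulein. The highest and the lowest of its caerulein values both belonged to miR-21-/- libraries, with the wild-type libraries between them. Col16a1, the type XVI chain, was 11.74 and 2.01 in wild-type caerulein and 3.51 and 4.82 in miR-21-/- caerulein. It had the same order of libraries as Col3a1 and Col5a2, and the miR-21-/- libraries again lay between the wild-type ones.

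**Figure D2:**
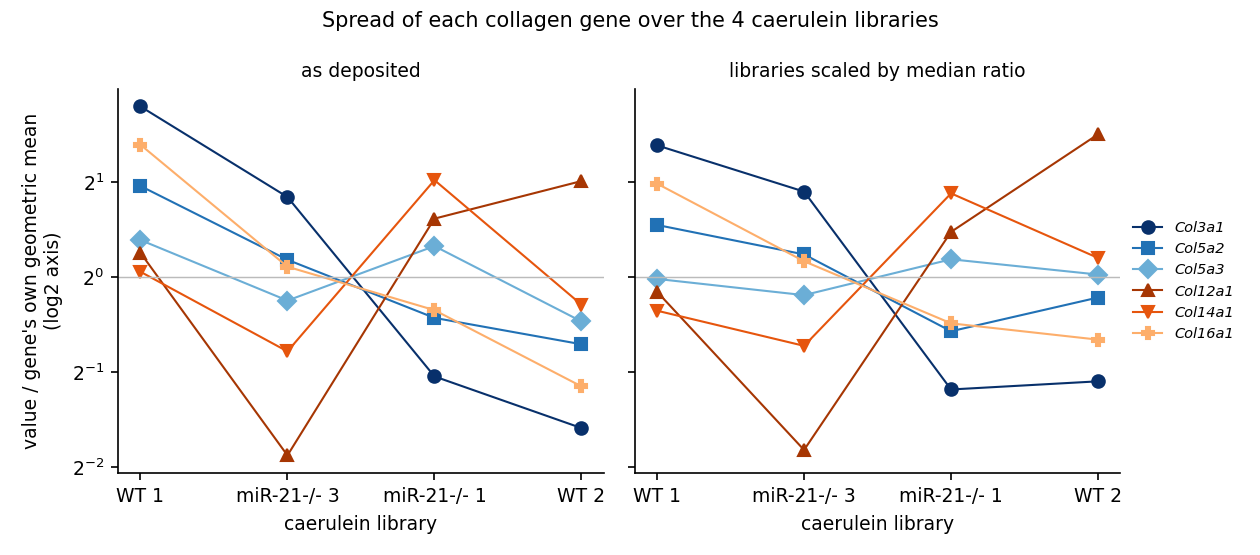
Value of each collagen gene divided by its own geometric mean over the 4 caerulein libraries (log2 axis), as deposited (left) and after scaling the libraries by their median ratio (right); lines only join the points of a gene, and the libraries stand in the order of Col3a1 as deposited. Col3a1, Col5a2 and Col16a1 fall from left to right as deposited, whereas Col12a1 is lowest in miR-21-/- replicate 3 and highest in wild-type replicate 2.

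As deposited, wild-type replicate 1 was the highest caerulein library for 4 of the 6 genes (Col3a1, Col5a2, Col5a3, Col16a1) and for 43.7% of all tested genes. Wild-type replicate 2 was the lowest for the same 4, and for 52.4% of all tested genes. The median ratio of wild-type replicate 1 to replicate 2 over all tested genes was 1.99, while single genes went either way (0.592 for Col12a1). With the caerulein libraries scaled by their median ratio to each other, replicate 1 was highest for 3 members (Col3a1, Col5a2, Col16a1) and for 24.4% of tested genes, and Col3a1 and Col5a2 were lowest in miR-21-/- replicate 1 instead. Under that scaling Col3a1 stood at 2.61 and 1.86 times its own geometric mean in wild-type replicate 1 and miR-21-/- replicate 3, and at 0.467 and 0.440 in the others. Col12a1 stood at 2.83 in wild-type replicate 2 and 0.283 in miR-21-/- replicate 3, so the opposed spreads of these collagens stayed under the scaling.

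Markers of stellate cells and fibroblasts differed between the libraries as well. Of 18 symbols listed for these cells 5 were among the genes analysed (Postn stands in the list of fibril organisers too), and Acta2, Vim, Des, Col1a1 and Col1a2 were not analysed here. Their summed level was 1.35 in saline, 134.1 and 37.76 in wild-type caerulein and 54.03 and 70.24 in miR-21-/- caerulein. That is the order of Col3a1, but Postn alone made up 78.38 of the 134.1, and of the 5 genes only Pdgfra and Pdgfrb had this order in the caerulein libraries. Fap was highest in miR-21-/- replicate 3 (11.45), and Rgs5 was lowest in miR-21-/- replicate 1 (6.31). Pdgfrb, a receptor of stellate cells and pericytes, Fap, a fibroblast protease, and Rgs5, a pericyte gene, were at 0.01 in saline, while Pdgfra, a fibroblast receptor, was 0.99 there. In whole tissue a change in the number of collagen-making cells and a change in RNA per cell cannot be told apart. The 8 measured macrophage and monocyte markers of 18 summed to 3.18 in saline and between 311.7 and 432.7 after caerulein. The 3 measured acinar markers of 26, Prss1, Prss3 and Cckar, summed to 2.33 in saline and to 420.6, 16.27, 173.1 and 333.2 in the caerulein libraries, in the order wild-type replicates 1 and 2, then miR-21-/- replicates 1 and 3. These sums had the same order of caerulein libraries as Col3a1, over a wider range, but Prss3 alone made up 384.9 of the 420.6. Prss3 and Cckar each had this order and Prss1 did not. Prss1 was 0.01 in saline and in both wild-type caerulein libraries, and 6.5 and 12.28 in miR-21-/- replicates 1 and 3. The remaining acinar markers were not analysed here, so the tissue label was not tested on them, and the part of any of these cell types in the collagen values was not tested. Of the other marker lists, Csf3r of 11 neutrophil and Vwf of 10 endothelial symbols were measured. Both rose in each comparison with saline, where 57.3% (wild-type) and 60.3% (miR-21-/-) of all tested genes were called higher. None of 9 duct symbols was measured, and neither the 2 of 12 islet nor the 2 of 9 mesothelium and fat symbols passed.

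The first comparison asked how these genes differed between wild-type caerulein and saline pancreas. Col3a1, Col5a2, Col5a3, Col12a1 and Col14a1 rose, and Col16a1 did not pass. Limma was fitted across all 1429 tested genes on log2(value + 1) with Benjamini-Hochberg adjustment. It thus called 5 of 6, where 57.3% of all tested genes were called higher. Nearly all genes in the table were already far from this same saline library, so the calls are not independent support for a rise. The median log2 difference of the 6 was 4.28, against 2.71 for all tested genes. With saline so low for the 6, their median largely follows their levels after caerulein.

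Col3a1 rose by 6.89 on the log2 scale (SE 1.17, 95% interval 4.60 to 9.19). For Col5a2 the log2 difference was 5.33 (SE 1.05) and for Col14a1 4.87 (SE 1.05). Of all members these differed most from saline on this scale. With saline at 0.01, or 0.38 for Col3a1, that order largely repeats their levels after caerulein, which are not compared between genes. Col5a3 and Col12a1 rose by 3.69 (SE 1.01) and 3.62 (SE 1.17), with limma adjusted p = 0.00224 and 0.00836. Col16a1 had a log2 difference of 2.62 (SE 1.95, 95% interval −1.20 to 6.43, limma adjusted p = 0.222). All 6 passed the filter on low values through their caerulein libraries, and the saline library has no replicate, so its spread is taken from the caerulein groups. With quantile normalization none of the 6 was called here or in the next comparison, and without miR-21-/- replicate 1, which enters the shared variance, Col12a1 was not called. An exact permutation test of 1 library against 2 cannot give a p below 0.333.

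The second comparison set miR-21-/- caerulein against the same wild-type saline library, which differs in genotype as well as treatment. The same 5 genes rose and Col16a1 again did not pass, where 60.3% of tested genes were called higher. The log2 difference was 6.69 for Col3a1 (SE 1.17), 5.11 for Col14a1 (SE 1.05), 5.08 for Col5a2 (SE 1.05) and 3.75 for Col5a3 (SE 1.01). Col12a1 was closest to the threshold at 2.59 (SE 1.17, limma adjusted p = 0.0463), with 1 of its libraries at 2.0, and it lost the call with libraries scaled to equal sums (the 20 most abundant genes left out of the sums), without the robust variance and without wild-type replicate 2. Col16a1 differed by 2.34 (SE 1.95, limma adjusted p = 0.271). The median of the 6 was 4.42, against 2.80 for all tested genes, and it too largely follows their levels after caerulein. Without miR-21-/- replicate 1 only 2 of the 6 were called, Col3a1 and Col5a2, and 29 of all tested genes. The wild-type and miR-21-/- comparisons share the saline library, so their values stand side by side and are not independent.

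**Figure D3:**
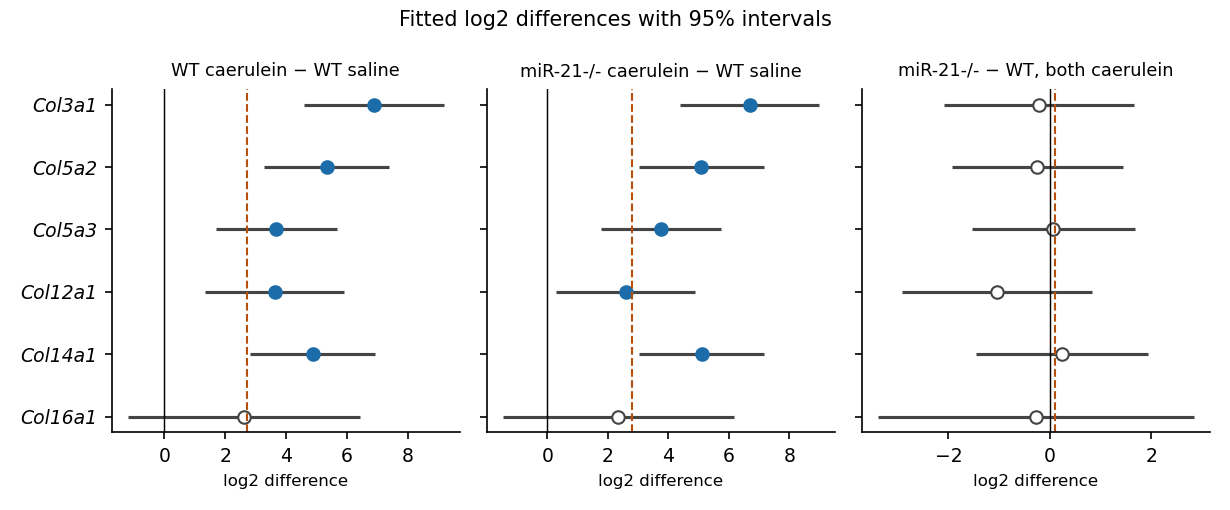
Fitted log2 difference of each collagen gene on the log2(value + 1) scale with its 95% interval from limma, for the 3 comparisons; filled points passed an adjusted p of 0.05, and the dashed line is the median of all tested genes. In both comparisons with saline 5 points are filled, and in the comparison of genotypes each interval spans 0.

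The third comparison asked whether the collagens differed between miR-21-/- and wild-type pancreas after caerulein. None of the 6 passed limma's test and none had an unadjusted p under 0.05. Over all 1429 tested genes limma called 0 (0%), with 7 at an unadjusted p under 0.05. No member had genotypes whose libraries did not overlap, against 9.31% of tested genes.

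Col12a1, the member with the miR-21 seed match, had the largest difference in size, −1.04 on the log2 scale (SE 0.96, 95% interval −2.91 to 0.84). It was lower in miR-21-/- on average, and any bearing of the seed match on this was not tested. The other members stood closer to 0. The log2 difference was −0.21 for Col3a1 (SE 0.96, 95% interval −2.08 to 1.67) and −0.25 for Col5a2 (SE 0.86, 95% interval −1.94 to 1.44). It was 0.07 for Col5a3 (SE 0.82, 95% interval −1.54 to 1.68) and 0.24 for Col14a1 (SE 0.86, 95% interval −1.45 to 1.93). For Col16a1 it was −0.27 (SE 1.59, 95% interval −3.39 to 2.84). Limma's adjusted p was 0.9997 for each, and these intervals are wide enough to hold more than a doubling either way for 5 of the 6, the upper bound for Col12a1 being 0.84. The median of the 6 was −0.23, against 0.10 for all tested genes. An exact permutation test of 2 libraries against 2 cannot give a p below 0.333.

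Single libraries set the sign of most of these differences, as the plot of left-out libraries shows. For Col3a1 the log2 difference was 1.47 without wild-type replicate 1 and −1.89 without wild-type replicate 2. Over the 4 libraries left out, Col5a2 ranged from −1.06 to 0.56, Col14a1 from −0.64 to 1.11 and Col16a1 from −1.31 to 0.77. Col5a3 took both signs within −0.33 to 0.46. Col12a1 was below 0 each time, from −2.05 without miR-21-/- replicate 1 to −0.02 without miR-21-/- replicate 3. The median of all tested genes moved from −0.33 to 0.50 over the same fits.

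**Figure D4:**
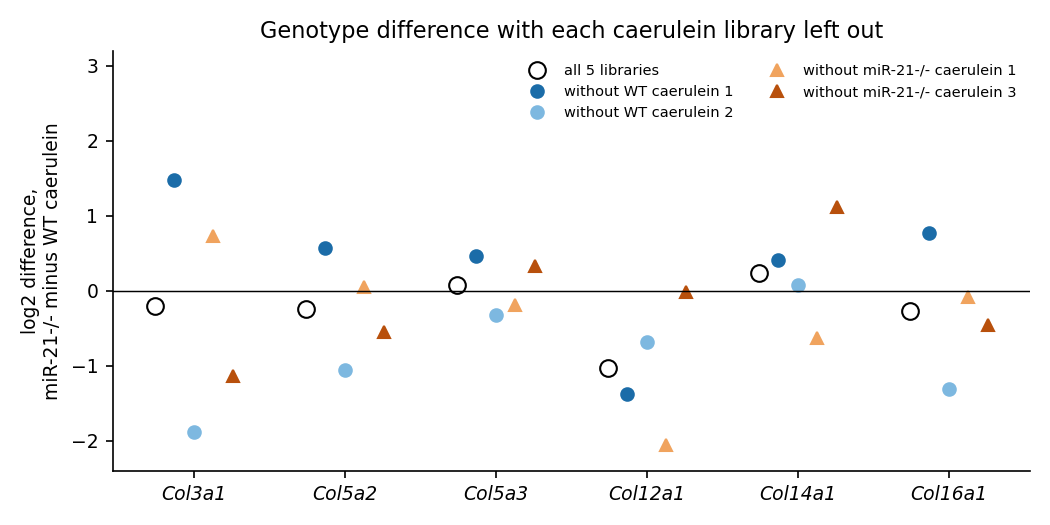
Log2 difference of each collagen gene, miR-21-/- minus wild-type caerulein, with all 5 libraries (open circles) and with each caerulein library left out in turn (filled; circles for a wild-type and triangles for a miR-21-/- library). The points of 5 genes lie on both sides of 0, and those of Col12a1 lie below it.

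Of 23 symbols for basement membrane, microfibril and transmembrane collagens 5 were measured, and 3 rose in each comparison with saline, which is near the 57.3% and 60.3% of all tested genes. Col4a2, a basement membrane chain, went from 0.25 to 36.5 and 22.04 in wild-type and 24.25 and 24.0 in miR-21-/- caerulein. That is a spread of less than a doubling between replicates, where Col3a1 spread more widely in both genotypes. Col8a1, a short-chain network collagen, was at 0.01 in saline, then 15.77 and 7.70 in wild-type and 5.66 and 7.52 in miR-21-/- caerulein. Col6a1, a microfibril chain, rose too, at 8.15 and 6.47 and at 6.80 and 10.28. Col6a3, its partner chain, and Col13a1, a transmembrane collagen, did not pass. Col6a3 was 10.07 and 5.59 in wild-type and 2.20 and 4.92 in miR-21-/- caerulein, and Col13a1 0.42 and 8.66, and 10.36 and 1.72. None was called between genotypes. The libraries of the genotypes did not overlap for 2 of the 5, Col6a3 and Col8a1, both lower in miR-21-/-, against 9.31% of tested genes. Whether these shares differ was not tested. The difference between these collagens and the fibrillar set was not tested. None of the 8 other fibrillar and 7 other fibril-associated symbols looked for was among the 1457 genes, so type I collagen is not analysed here.

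Genes that fold, cut and cross-link collagen came next. Of 43 symbols for folding, secretion and processing 8 were measured. Of these 6 rose in wild-type and 5 in miR-21-/- caerulein, where 57.3% and 60.3% of all tested genes did, with median log2 differences of 3.24 and 3.35. Plod1, a lysyl hydroxylase, was at 0.01 in saline, 30.31 and 7.56 in wild-type and 16.95 and 18.05 in miR-21-/- caerulein. Adamts2, the protease that removes the amino-terminal propeptide of fibrillar procollagens, went from 0.35 to 20.56 and 11.49, and 17.6 and 11.57. Crtap, a part of the prolyl 3-hydroxylation complex, went from 0.44 to 25.08 and 9.83, and 21.68 and 13.82, and P4ha2, a prolyl 4-hydroxylase subunit, from 0.25 to 13.74 and 8.52, and 12.32 and 8.94. These 4 genes were called in both comparisons with saline and in none between genotypes.

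Of 6 cross-linking symbols Lox and Loxl2, lysyl oxidases, were measured. Both rose in each comparison with saline, where 57.3% and 60.3% of all tested genes did. Lox was at 0.01 in saline and 57.44 and 10.71, then 21.58 and 24.01, with its highest value in wild-type replicate 1 as for Col3a1. Loxl2 went from 0.62 to 11.31 and 26.97, and 20.74 and 22.85, with its lowest caerulein value in that library. Their log2 differences between genotypes were −0.14 (SE 0.86) and 0.30 (SE 0.86).

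Of 34 symbols for fibril organisers and collagen-binding matrix proteins 17 were measured, of which 12 rose in wild-type and 13 in miR-21-/- caerulein (57.3% and 60.3% of all tested genes). Fn1, fibronectin, on which collagen fibrils assemble, was at 0.01 in saline, 75.92 and 21.04 in wild-type and 26.42 and 8.08 in miR-21-/- caerulein. Postn, periostin, which binds collagen I and fibronectin, went from 0.33 to 78.38 and 18.54, and 32.83 and 32.67. Sdc1, a cell-surface proteoglycan, and Tgfbi, a collagen-binding secreted protein, also rose, to between 36.72 and 85.79 and between 38.24 and 76.09 over the 4 caerulein libraries. In this list 0 were called between genotypes, with a median log2 difference of −0.18, and 2 of the 17 had genotypes that did not overlap, as did 9.31% of all tested genes. Nid1, a basement membrane linker named here after its values were seen, was the 1 gene of the list below its saline level in both comparisons. It was 11.73 in saline, 7.74 and 0.84 in wild-type and 2.02 and 8.46 in miR-21-/- caerulein, and it did not pass (log2 differences −1.67 and −1.25, SE 1.17 for both).

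Of 18 collagen receptor symbols 4 were measured, of which 3 rose in wild-type and 2 in miR-21-/- caerulein, against the 57.3% and 60.3% of all tested genes. Mrc1, a mannose receptor that takes up collagen, and Cd36, a scavenger receptor, rose in both. Cd44, a hyaluronan receptor that also binds collagen, passed in wild-type and not in miR-21-/- caerulein, and the genotypes themselves were not called different (log2 difference −0.92, SE 0.89). Itgav, an integrin chain, was 13.05 and 1.45 in wild-type and 2.97 and 5.42 in miR-21-/- caerulein and did not pass. All 5 measured of 28 protease and inhibitor symbols rose in both comparisons, where 57.3% and 60.3% of all tested genes did: Timp3, an inhibitor of metalloproteases, Plat, tissue plasminogen activator, and the membrane proteases Adam9, Adam10 and Adam12. Timp3 went from 2.04 to 31.99 and 20.06, and 31.51 and 17.05. No matrix metalloprotease of the list was among the genes analysed.

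Of 27 symbols for TGF-β and PDGF signalling, which drives collagen transcription and stellate cell growth, 4 were measured and 2 rose in each comparison with saline. That is near the 57.3% and 60.3% of all tested genes, as far as 4 genes can show. Smad4, the shared mediator of TGF-β signals, was at 0.01 in saline, 9.42 and 5.39 in wild-type and 17.2 and 7.61 in miR-21-/- caerulein. Pdgfrb was 13.53 and 4.94, and 5.94 and 6.81. Cyr61, a matricellular protein, and Pdgfra did not pass. Pdgfra was 11.51 and 0.90, and 1.28 and 3.62, high in wild-type replicate 1 alone.

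Genes whose pattern over the 5 libraries was most like each collagen were ranked by the root mean square difference of centred log2(value + 1). This is a description over 5 libraries with no p. The distance is not scaled, so it takes in how far each gene stood from saline, and with that its level after caerulein. From Col3a1, Col16a1 with the same order of libraries lay at 1.83, and Col14a1 with another order lay nearer at 1.67. For Col3a1 the 3 nearest were Hmgb2 (0.773), a chromatin protein, Sdcbp (0.920), syntenin, and Col5a2 (0.931), against a median of 1.97 over all tested genes. Seen from Col5a2, Col3a1 at the same distance ranked 273 among the tested genes (median 1.19), so the nearness held in 1 direction. Col12a1 was the farthest member from Col3a1 at 2.34. For Col5a2 they were Sdcbp (0.276), Postn (0.286) and Glrx3 (0.303). For Col5a3 they were Acadl, Adamts2 and Arhgap1 at 0.102 to 0.109, so a procollagen protease was among its nearest genes. Col12a1 lay nearest to Psmd11 (0.206), Stat6 (0.258) and Mid1 (0.302), and Col14a1 to Ifnar2 (0.068), Lamp1 (0.220) and Lcp1 (0.224). Col16a1 lay nearest to Smurf1 (0.097), Uba1 (0.103) and Tnpo1 (0.121). Col3a1 was the 1 member of the 6 with another collagen among its 3 nearest genes.

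Promoters were available for 3 of the 6 genes and are shown because Col3a1 and Col16a1 shared an order of libraries as deposited and Col5a3 did not. Under the median-ratio scaling the order was not shared: Col3a1 was lowest in miR-21-/- replicate 1 and Col16a1 in wild-type replicate 2. Each is the stretch before the most upstream RefSeq start on GRCm38.p6, at most 250 bases, 5′ to 3′ along the gene. Capitals mark matches on either strand to 5 motifs: the TATA box TATAAA, the CCAAT box CCAAT, the GC box GGGCGG, the SMAD-type motif CAGACA and the AP-1 motif TGACTCA; no matches overlapped. Col3a1 lies at chr1:45311288-45311537 (plus), Col5a3 at chr9:20815118-20815317 (minus) and Col16a1 at chr4:130047590-130047816 (plus).
Col3a1: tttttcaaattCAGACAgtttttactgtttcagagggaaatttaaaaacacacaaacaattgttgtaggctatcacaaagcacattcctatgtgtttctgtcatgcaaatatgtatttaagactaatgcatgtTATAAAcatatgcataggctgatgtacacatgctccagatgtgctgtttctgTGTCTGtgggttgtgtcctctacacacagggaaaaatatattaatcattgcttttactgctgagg
Col5a3: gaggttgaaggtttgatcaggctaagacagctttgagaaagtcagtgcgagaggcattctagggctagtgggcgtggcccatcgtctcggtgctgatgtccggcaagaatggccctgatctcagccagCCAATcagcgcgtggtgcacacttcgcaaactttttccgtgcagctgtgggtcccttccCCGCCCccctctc
Col16a1: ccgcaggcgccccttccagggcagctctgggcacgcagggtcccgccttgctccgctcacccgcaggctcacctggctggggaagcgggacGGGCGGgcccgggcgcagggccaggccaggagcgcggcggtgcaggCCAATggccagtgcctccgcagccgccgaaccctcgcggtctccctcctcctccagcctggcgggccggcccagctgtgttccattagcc

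The Col3a1 stretch was 35.2% G or C, near the 5th percentile (34.8%) of 32851 RefSeq promoters of that length, while Col5a3 was 58.0% and Col16a1 75.8%, above the 95th percentile (73.6%). Col3a1 held TATAAA from 117 to 112 bases before its start, as did 12.4% of promoters anywhere in 250 bases, and 2 CAGACA matches (17.1% of promoters held at least 1). Col5a3 and Col16a1 each held 1 CCAAT and 1 GGGCGG match. Of promoters, 28.4% and 24.6% held these in the farthest 200 of the 250 bases before the start. In the farthest 227 the shares were 31.8% and 29.4%. Both windows leave out the bases next to the start, and over all 250 bases the shares were 33.8% and 32.7%. Col3a1 and Col16a1 had no motif of this set in common, and TGACTCA was in none of the 3 stretches (4.5% of promoters at 250 bases).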

How the data were processed

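Poly(A) RNA of whole pancreas was fragmented, randomly primed and sequenced on an Illumina instrument, per the labels' protocols. Bowtie 0.12.2 and the genome build mm8 are named in the submitters' processing notes. How genes were annotated, quantified and normalized is not stated there. The authors deposited 1 signal value per gene symbol and library for 1457 genes, in an unstated unit, plus 1 blank row per file. No whole-read step was seen, so no count test was used.

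The test ran on log2(value + 1) without rescaling; such differences understate changes of low genes. Genes with at least 1 in at least 2 libraries (1429, all 6 collagens among them) entered a limma 3.58.1 linear model (R 4.3.3; 1 mean per group, trended robust variance), with Benjamini-Hochberg adjustment over all tested genes at 0.05. The comparison of genotypes was tested on simulated data with independent noise of equal spread for all genes. That setting lacks the closer likeness of particular libraries across genotypes that the deposited values show. Genes named are the 6 collagens, up to 4 genes per list by their wild-type difference from saline (all where 5 or fewer were measured), and the 3 nearest in pattern. Members, lists and alternatives were chosen with earlier results of these data known. Promoters and microRNAs come from RefSeq (GRCm38.p6) and 3′ UTRs from GENCODE M21, a newer build than mm8, matched by symbol. Alternatives changed scaling, filter, pseudocount, variance estimate, groups fitted and libraries included.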

Additional observations from a re-analysis of the deposited data

How the results depend on the processing

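No paired analysis was possible because the caerulein groups share only 1 replicate number and the labels do not say that it marks a shared animal or day. Of the 6 collagens, 5 called in each comparison with saline became 0 with quantile normalization, which gives all libraries 1 distribution, and 1 when genes at 0.01 in any library were dropped, where 1 member could be tested. With a library left out the count in miR-21-/- against saline ranged from 2 to 5. Under quantile normalization the log2 differences of Col12a1 and Col16a1 in that comparison were −0.0642 and −0.10. Col12a1 also lost its call there with library sums made equal over all but the 20 most abundant genes, without a robust variance, without wild-type replicate 2 and without miR-21-/- replicate 1, and in wild-type against saline without miR-21-/- replicate 1; Col5a3 and Col14a1 lost theirs without miR-21-/- replicate 1. Col16a1 passed with a pseudocount of 0.1 in both comparisons, and in wild-type against saline without wild-type replicate 2. Between genotypes 0 members were called in any fit run. The sign there changed for Col5a3 with equal sums (−0.0246) and median-ratio scaling (−0.0036), and with a library left out Col3a1 ranged from −1.89 to 1.47, Col5a2 from −1.06 to 0.56, Col5a3 from −0.33 to 0.46, Col14a1 from −0.64 to 1.11 and Col16a1 from −1.31 to 0.77. The cause of these changes was not tested.

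In wild-type against saline, 819 calls over all tested genes, all higher, went to 9 (quantile, 0 of them higher), 250 (equal sums, 210 higher), 488 (no gene at 0.01) and 440 (these 2 groups fitted alone); the fits that drop a library gave 377 to 1080. In miR-21-/- against saline, 863 calls, 861 of them higher, went to 6 (quantile, 0 higher), 235 (equal sums, 206 higher) and 542 (no gene at 0.01), and to between 29 and 1028 when a library was dropped. Between genotypes dropping a library gave 0 to 4 calls. The median of all genes against saline was 0.07 (wild-type) and 0.08 (miR-21-/-) after quantile normalization, and 0.79 and 0.82 at equal sums. Depth is unknown, so no counting error could be given.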
